A study of Caenorhabditis elegans with 6 samples.

Results

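The basement membrane genes examined here were the type IV collagen genes emb-9 and let-2, the laminin genes epi-1, lam-1, lam-2 and lam-3, the nidogen gene nid-1 and the type XVIII collagen gene cle-1 of the nematode Caenorhabditis elegans. They were picked by symbol, and all 8 of them were found among the 46748 genes of the count table. All 8 had enough counts to be tested, as did 14354 genes in all. Their transcripts did not differ between worms with and without the circular RNA of crh-1 beyond the spread between libraries, which left wide intervals. In scaled counts of both genotypes, however, the library numbered replicate 2 held far more type IV collagen and laminin transcripts than replicates 1 and 3. On that scale nid-1 and cle-1 hardly moved.

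A basement membrane is the thin sheet of extracellular matrix that underlies epithelia and surrounds muscle, gonad and pharynx. Its scaffold is made of a laminin network, in which each trimer joins an alpha, a beta and a gamma chain, and of a type IV collagen network, whose trimers hold more chains from emb-9 than from let-2. In the worm, muscle and somatic gonad make most of the type IV collagen, and worms without it or without laminin fail to complete embryonic development. Nidogen is a glycoprotein of the same sheet that binds laminin and collagen in vertebrates, and type XVIII collagen is a proteoglycan-type collagen of basement membranes.

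RNA was sequenced from whole worms of strain N2 (genotype wild type, 3 libraries) and of strain VDL786 (genotype crh-1(syb385), a knockout of the circular RNA circ-crh-1, 3 libraries). crh-1 encodes the CREB transcription factor, and the comparison asked which transcripts differ when its circular RNA is missing. Both groups were grown at 20 °C, moved as L4 larvae to plates holding 25 µM FUdR, which blocks DNA synthesis and so progeny, and collected as day 1 adults on a 30 µm mesh. The labels number the libraries 1 to 3 in each genotype, call the replicates independent and state no pairing. They do not say whether the replicates came from separate cultures. The p-values thus measure only the spread between these libraries, which may be technical. In bulk RNA of whole animals, fewer cells of a type and less RNA per cell cannot be told apart.

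Total counts ran from 38974777 to 47444165 per library, and protein-coding counts from 14188050 in knockout replicate 2 to 35075781. rRNA took 58.5% of the counts in knockout replicate 2 and 22.9% to 36.4% in the other 5 libraries. crh-1 itself was at 20.6, 18.7 and 23.9 CPM (counts scaled to TMM-adjusted library size) in replicates 1 to 3 of wild type and at 17.9, 17.6 and 23.8 CPM in knockout replicates 1 to 3. Its count pools linear and circular reads, so it is no check of the genotype. The 8 genes had between 531 and 11329 counts per library. Counting error was small beside the spread between libraries, except for cle-1, whose libraries differed little.

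emb-9 and let-2 encode the alpha1-type and alpha2-type chains of type IV collagen and were the most abundant of the 8 genes. emb-9 (WBGene00001263; WBcel235 chromosome III, 9336877 to 9344447, minus strand, 12 exon intervals in the count table) was at 23.2, 40.2 and 27.5 CPM per kb of exon in replicates 1 to 3 of wild type and at 27.4, 49.0 and 22.6 in knockout replicates 1 to 3. let-2 (WBGene00002280; chromosome X, 16380597 to 16389369, minus strand, 19 exon intervals) was at 24.4, 40.5 and 25.5 CPM per kb in wild type and 24.9, 55.6 and 20.4 in knockout. Replicate 2 was the highest library of each genotype for both genes, and the genotypes overlapped.

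The group means of emb-9 were 30.3 ± 8.85 CPM per kb in wild type and 32.98 ± 14.05 in knockout (SD, n = 3). The log2 fold change of emb-9, knockout over wild type, was 0.12 (SE 0.37; edgeR quasi-likelihood test, Benjamini-Hochberg adjusted p = 0.996), and its 95% interval as a fold ran from 0.61 to 1.94. For let-2 the means were 30.1 ± 9.01 and 33.6 ± 19.1 CPM per kb (SD, n = 3), and knockout over wild type came to 0.16 on the log2 scale (SE 0.42; edgeR adjusted p = 0.996), with an interval from 0.577 to 2.16. Neither gene passed the test. The intervals are not adjusted for the number of genes tested, so their bounds do not mark the smallest fold that could be called.

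**Figure D1:**
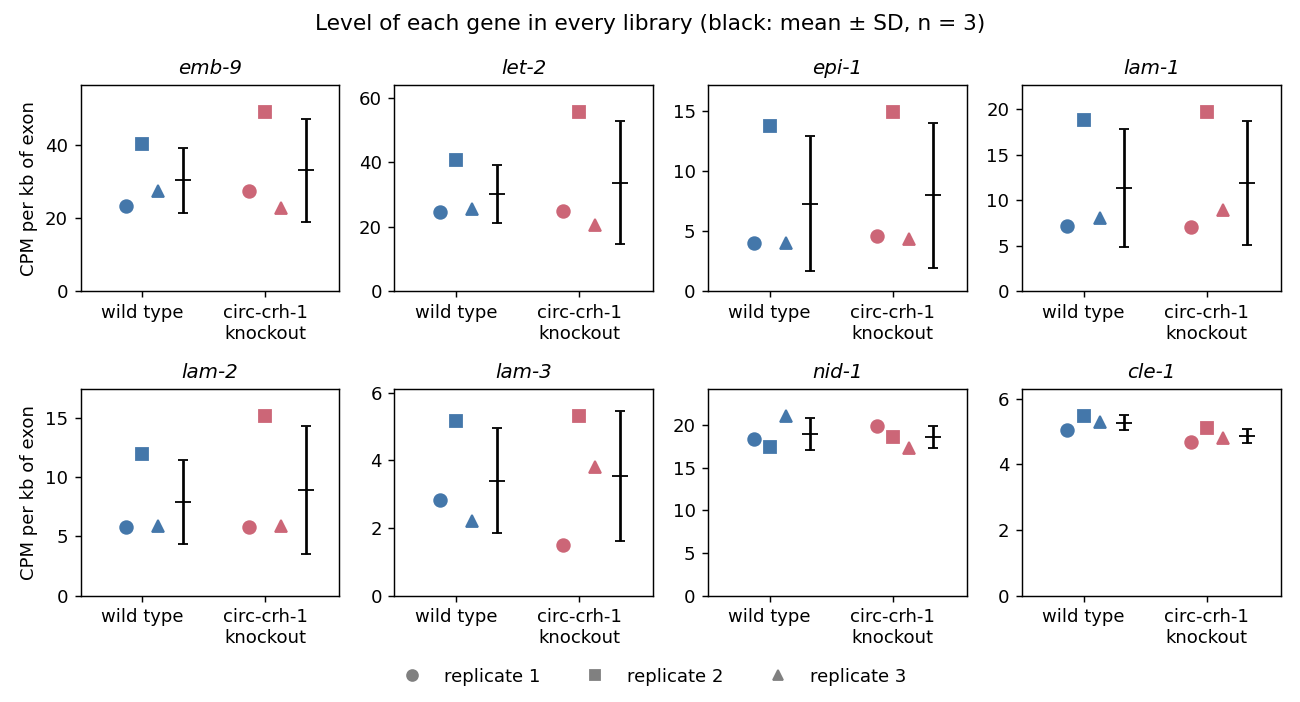
Level of each of the 8 genes in every library, in CPM per kb of exon (vertical axes, each starting at 0), for wild type (blue) and circ-crh-1 knockout (red); the marker shape gives the replicate number, and the black bar the mean ± SD of 3 libraries. Squares (replicate 2) stand above the other libraries for the type IV collagen and laminin genes in both genotypes, for example at 13.8 and 14.9 for epi-1, whereas nid-1 stayed between 17.3 and 21.1 and cle-1 between 4.70 and 5.47.

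The laminin genes were also highest in replicate 2 of each genotype. epi-1, which encodes one of the worm's alternative alpha chains (WBGene00001328; chromosome IV, 10666827 to 10679441, plus strand, 17 exon intervals), was at 4.05, 13.8 and 4.06 CPM per kb in wild type and 4.64, 14.9 and 4.40 in knockout. lam-3, the gene of the other alpha chain (WBGene00002248; chromosome I, 10608466 to 10621428, plus strand, 13 exon intervals), was at 2.82, 5.16 and 2.21 CPM per kb in wild type and 1.498, 5.31 and 3.81 in knockout. The other epi-1 libraries were nearly level, whereas the other lam-3 libraries were not.

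lam-1 encodes the beta chain (WBGene00002247; chromosome IV, 5173280 to 5183708, plus strand, 11 exon intervals) and was at 7.17, 18.8 and 8.01 CPM per kb in wild type and 7.07, 19.7 and 8.97 in knockout. lam-2 encodes the gamma chain (WBGene00016913; chromosome X, 7143918 to 7151235, minus strand, 12 exon intervals) and was at 5.83, 11.99 and 5.86 CPM per kb in wild type and 5.82, 15.2 and 5.85 in knockout. The lam-2 libraries other than replicate 2 were thus almost level, between 5.82 and 5.86 CPM per kb.

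The genotype difference of the laminin genes was small beside its error. The log2 fold change was 0.13 (SE 0.62) for epi-1, 0.06 (SE 0.48) for lam-3, 0.07 (SE 0.49) for lam-1 and 0.18 (SE 0.46) for lam-2, with edgeR adjusted p between 0.996 and 0.998. The interval of epi-1 was the widest of the 8 genes, from 0.41 to 2.92 as a fold. For lam-3 the difference between same-numbered libraries turned round: the log2 ratio of knockout to wild type was -0.91 in the replicate 1 pair, 0.04 in the replicate 2 pair and 0.79 in the replicate 3 pair.

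nid-1 and cle-1 were the steadiest in scaled counts. nid-1, the nidogen gene (WBGene00003738; chromosome V, 12910113 to 12917221, plus strand, 16 exon intervals), was at 18.3, 17.5 and 21.1 CPM per kb in wild type and 19.9, 18.6 and 17.3 in knockout. cle-1, the type XVIII collagen gene (WBGene00000527; chromosome I, 8705687 to 8724279, minus strand, 25 exon intervals), was at 5.04, 5.47 and 5.30 CPM per kb in wild type and 4.70, 5.10 and 4.80 in knockout. The highest library was 1.22 times the lowest for nid-1 and 1.17 times for cle-1, against 2.17 times for emb-9 to 3.69 times for epi-1. Their log2 fold changes were -0.03 (SE 0.25) and -0.12 (SE 0.23), with edgeR adjusted p of 0.998 and 0.996.

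Of the 8 genes, 0 passed the edgeR test of knockout against wild type, as did 0 of all 14354 genes (0%; 141 genes, or 0.982%, had an unadjusted p under 0.05, and 0 of the 8). DESeq2 called 31 of 16622 genes (0.186%) and limma-voom 0 of 14354 (0%), and neither called any of the 8. With the replicate number as a block, 0 of the 8 were called by edgeR (0.00697% of all genes) or DESeq2 (0.17%), and 0 had an unadjusted p under 0.05 (4.77% in the edgeR fit). The groups did not overlap in 0 of the 8 genes, against 3.27% of all genes. The fold change was positive in 6 of the 8, with a median of 0.10, and in 52.3% of all genes, with a median of 0.02. On library totals alone these 6 changes were negative, between -0.35 and -0.24, where the median of all genes was -0.21.

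The fold changes of the 6 collagen IV and laminin genes moved with single libraries. Without knockout replicate 2 the log2 fold changes of emb-9, let-2, epi-1, lam-1, lam-2 and lam-3 were -0.26, -0.40, -0.70, -0.51, -0.44 and -0.40, in that order. Without wild-type replicate 2 they were 0.38, 0.43, 0.98, 0.65, 0.61 and 0.50, with no change of sign. epi-1, lam-1 and lam-3 also turned negative without wild-type replicate 1 (-0.12, -0.13 and -0.033) and without wild-type replicate 3 (-0.10, -0.069 and -0.12). With both replicate 2 libraries left out, the fold changes of the 6 genes in the order above were -0.02, -0.13, 0.16, 0.08, 0.00 and 0.08. Those of nid-1 and cle-1 were -0.08 and -0.12.

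**Figure D2:**
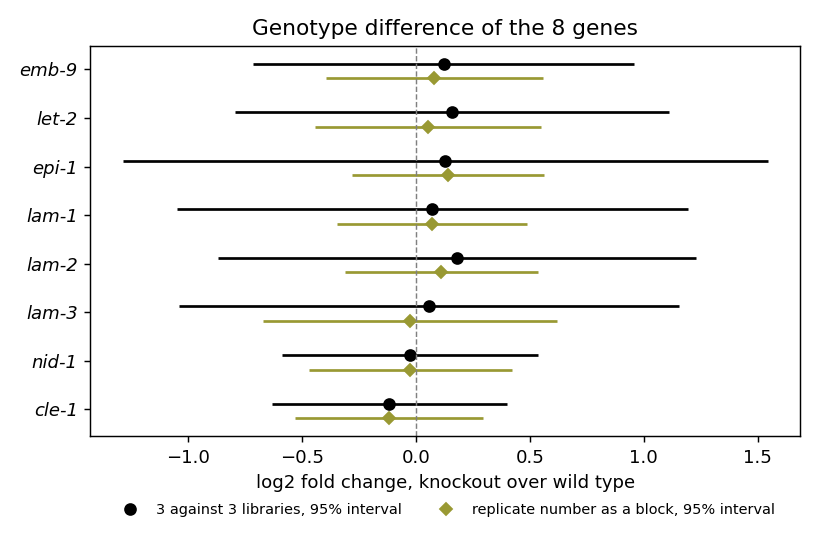
Log2 fold change of each gene, knockout over wild type (horizontal axis), with its 95% interval, without (black circles) and with (olive diamonds) the replicate number as a block. Every interval includes 0; for epi-1 the interval as a fold ran from 0.41 to 2.92 without the block and from 0.824 to 1.48 with it.

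Per length, the genes ranked let-2, emb-9, nid-1, lam-1, lam-2, epi-1, cle-1 and lam-3, with means over the 6 libraries of 31.9, 31.6, 18.8, 11.6, 8.43, 7.65, 5.07 and 3.47 CPM per kb. emb-9 lay above nid-1 and lam-1 above lam-2 in 6 of 6 libraries. let-2 lay above emb-9 in 3 of 6, nid-1 above lam-1 in 4 and lam-2 above epi-1 in 5. epi-1 lay above cle-1 in 2 and cle-1 above lam-3 in 5. These neighbours did not keep the same order in every library, and their differences in level were not tested. epi-1 stood below cle-1, and nid-1 above lam-1, everywhere except in both replicate 2 libraries. Type IV collagen made up 48.8% to 57.0% of the summed level of the 8 genes, and laminin 32.4% and 30.1% in replicate 2 of wild type and knockout but 19.8% to 26.1% in the other libraries.

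Ratios between chains are free of the scaling between libraries. The ratio of let-2 to emb-9, per length, was 1.05, 1.01 and 0.926 in replicates 1 to 3 of wild type and 0.911, 1.14 and 0.904 in knockout. Both chain genes thus had about equal transcript levels in every library. The ratio of lam-1 to lam-2 was 1.23, 1.57 and 1.37 in wild type and 1.21, 1.30 and 1.53 in knockout, with the beta chain above the gamma chain throughout. The ratio of lam-3 to epi-1 was 0.695, 0.374 and 0.544 in wild type and 0.323, 0.355 and 0.866 in knockout, so that the balance between the alpha chain genes varied most.

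The 3 ratios were compared between genotypes with an exact two-sided permutation test, whose smallest possible p for 3 against 3 libraries is 0.1. The log2 difference, knockout minus wild type, was -0.03 (SE 0.12; exact permutation p = 0.8) for let-2 to emb-9, -0.17 (SE 0.52; exact permutation p = 0.8) for lam-3 to epi-1 and -0.04 (SE 0.14; exact permutation p = 0.7) for lam-1 to lam-2. Adjusted over the 3 ratios each exact permutation p was 0.8. None differed beyond the spread between replicates, and the lam-3 to epi-1 difference was 0.02 without knockout replicate 2 and -0.62 without knockout replicate 3.

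**Figure D3:**
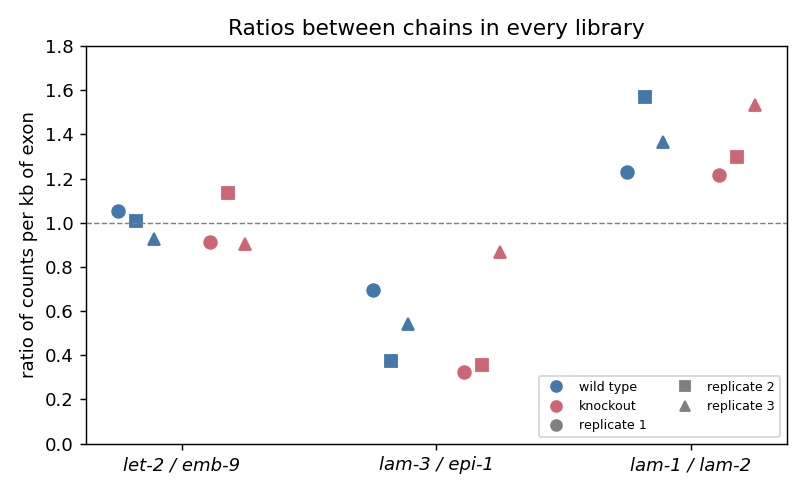
Ratio of counts per kb of exon between chain genes in every library (vertical axis, from 0), for wild type (blue) and knockout (red), with marker shapes for the replicate number; the dashed line marks equal levels. let-2 to emb-9 stays between 0.904 and 1.14, lam-1 to lam-2 stays above 1, and lam-3 to epi-1 ranges from 0.323 to 0.866.

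The most visible pattern lay between replicate numbers, not genotypes. Replicate 2 was above the mean of replicates 1 and 3 by a factor of 1.59 in wild type and 1.96 in knockout for emb-9, of 1.62 and 2.45 for let-2, of 3.40 and 3.31 for epi-1, of 2.48 and 2.46 for lam-1, of 2.05 and 2.60 for lam-2 and of 2.053 and 2.002 for lam-3. For nid-1 the factors were 0.887 and 1.00, and for cle-1 they were 1.06 and 1.07. Both replicate 2 libraries lay above all 4 others in these 6 genes, a separation seen in 10.6% of all genes tested. The same 6 genes exceeded 1.5 times the mean of the other replicates in each genotype (8.23% of all genes), and with cle-1 there were 7 whose highest library of each genotype was replicate 2 (15.6%). This contrast was chosen after the values were seen and is given as a description. It also rests on the scaling, where the TMM factor was 0.626 in knockout replicate 2 and 1.06 to 1.13 in the other libraries. In raw knockout counts, which also carry depth, replicate 2 was still highest for let-2, epi-1, lam-1 and lam-2. It was not for emb-9 (7265, 6707 and 6762 in replicates 1 to 3) or lam-3 (669, 1224 and 1917). Raw nid-1 counts there were 4731, 2281 and 4629.

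All 3 replicate numbers were then compared in the edgeR fit that holds the number as a block, a test added after seeing the data. It takes same-numbered libraries as paired, which rests on their correlated deviations and not on the labels. Of the 8 genes, 4 differed between replicate numbers, epi-1 (edgeR adjusted p = 0.0031), lam-1 (0.0124), lam-2 (0.0213) and let-2 (0.0446), while 1950 of all genes did (13.6%). lam-3 (edgeR adjusted p = 0.0628) and emb-9 (0.065) did not pass, nor did nid-1 (0.942) and cle-1 (0.901). All 6 collagen IV and laminin genes were called over protein-coding genes only (edgeR adjusted p = 0.0273 for emb-9 and 0.0203 for lam-3), where 23% of genes were. The DESeq2 likelihood ratio test also called all 6 (adjusted p = 0.0191 and 0.0237), and it called 25.4% of genes. Without knockout replicate 1 only epi-1 was called (edgeR adjusted p = 0.00336), and on library totals alone 0 of the 8 were, with a smallest edgeR adjusted p of 0.121 against 968 called genes.

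**Figure D4:**
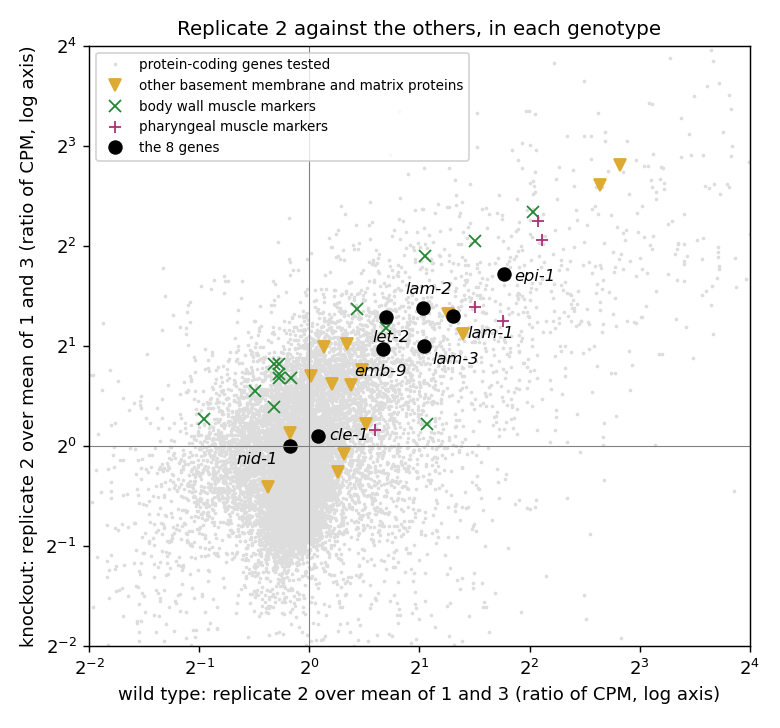
Ratio of replicate 2 to the mean of replicates 1 and 3 in wild type (horizontal, log axis) and in knockout (vertical, log axis) for protein-coding genes tested (grey; 220 genes outside the axes or at 0 are not drawn), the 8 genes (black), other basement membrane and matrix genes (gold), body wall muscle markers (green) and pharyngeal muscle markers (purple). epi-1 sits at 3.40 and 3.31, and nid-1 and cle-1 sit near 1 in both genotypes.

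Gene length and RNA composition were set beside this pattern. Among protein-coding genes tested, the median ratio of replicate 2 to the others was 0.951 in wild type and 0.914 in knockout. It was 0.989 and 0.797 over the genes with 5 to 6 kb of exon, the class of emb-9, let-2, lam-1, lam-2 and nid-1, and 1.10 and 1.30 over the 32 genes of 10 to 15 kb, the class of epi-1. Only the 14 genes over 15 kb had medians above 2, at 2.06 and 2.12. The collagen IV and laminin genes thus lay above the medians of their length classes. With a smooth offset for gene length in the blocked fit, 5 of the 8 genes differed between replicate numbers (8.67% of all genes). Each point of that offset drew on a fraction of 0.3 of all genes. It may therefore follow the few longest genes poorly. The rRNA share was 34.1% in wild-type replicate 2, between those of wild-type replicates 3 (25.98%) and 1 (36.4%), and 58.5% in knockout replicate 2. The parts of gene length and RNA composition in the levels were not tested.

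**Figure D5:**
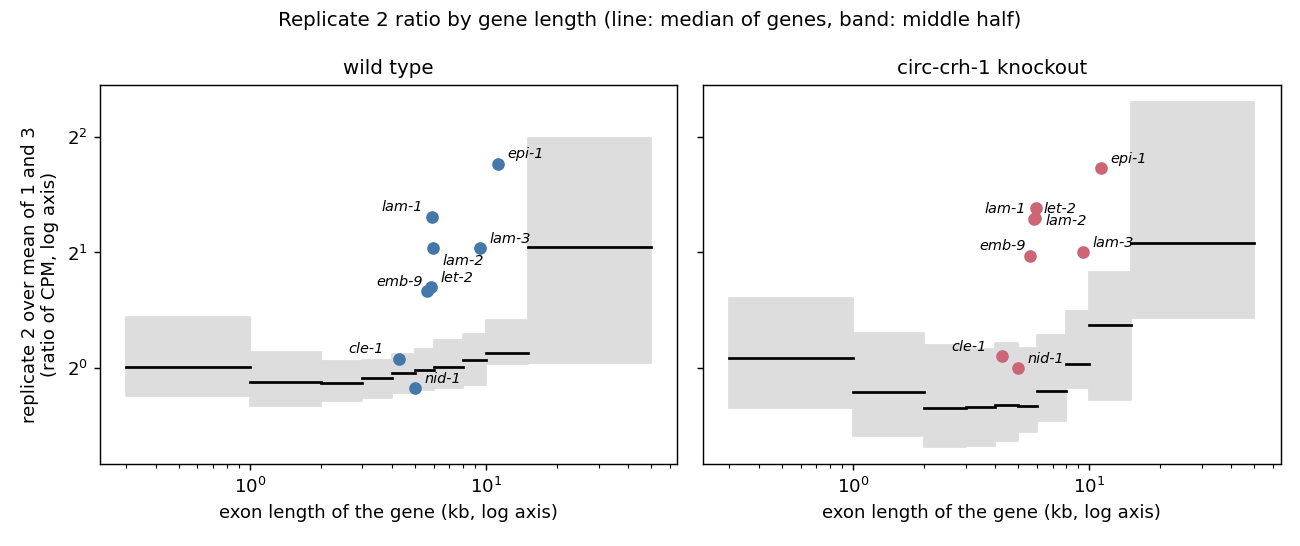
Ratio of replicate 2 to the mean of replicates 1 and 3 (vertical, log axis) against exon length (horizontal, log axis) in wild type and knockout. Black lines and grey bands give the median and interquartile range of protein-coding genes per length class (the outermost classes are drawn from 0.3 kb and to 50 kb), and points the 8 genes; the 6 collagen IV and laminin genes lie above the bands of their classes, and nid-1 and cle-1 inside them.

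Markers of other cells moved with the replicate number as well. The summed level of the 6 pharyngeal muscle markers was 93.3 and 84.9 CPM in the replicate 2 libraries against 26.9 to 35.8 CPM in the other 4 libraries. Of these 6 markers, 4 were higher in both replicate 2 libraries than in all others, against 10.6% of all genes tested. Of 14 body wall muscle markers 6 did so, among them the twitchin gene unc-22 (48.9, 214 and 55.8 CPM in wild-type worms, 57.4, 275 and 50.8 in knockout), but the summed level was 2797, 2932 and 3091 CPM in wild-type worms and 3942, 5379 and 2030 CPM in knockout. The troponin gene tnt-2 went the other way in wild type (217, 124 and 267 CPM).

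Early embryo markers were sparse, with 40 to 240 counts per library summed over 8 genes, and none was at 0 in all libraries. Their summed level was 1.63, 5.03 and 1.40 CPM in wild-type worms and 0.847, 3.40 and 2.101 in knockout. Only 3 of the 8 had enough counts to be tested. Of the 8, 5 were higher in both replicate 2 libraries than in all others, and 1 of the 3 tested, against 10.6% of all genes tested. Coelomocyte markers did so in 2 of 3, sperm markers in 1 of 8, and gonadal sheath and spermatheca, oocyte and germline, hypodermis and intestine markers in 0 of 7, 10, 7 and 6. The part of these cells in the level of the basement membrane genes was not tested.

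Of the other basement membrane and matrix genes, all 15 listed were tested and 0 were called in the genotype comparison. Of these, 13 had a positive and 2 a negative fold change, with a median of 0.23, where 52.3% of all genes were positive. The smallest p belonged to smoc-1, a homologue of secreted modular calcium-binding proteins, which was at 1.97, 2.05 and 1.19 CPM in wild-type worms and 4.13, 4.10 and 1.257 in knockout, which on the log2 scale is 0.86 (SE 0.49; edgeR adjusted p = 0.996). The SPARC gene ost-1 had 0.40 (SE 0.35) and the agrin gene agr-1 0.35 (SE 0.33). The groups overlapped for all 15. Body wall muscle markers had a positive fold change in 14 of 14 (median 0.30, 0 called), and their part in these values was not tested. Both counts of positive genes were taken with TMM scaling. On library totals alone the median of all genes was -0.21, against 0.02 with TMM. On those totals smoc-1, ost-1 and agr-1 were at 0.53, 0.07 and 0.08, and the others are not given.

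Across replicate numbers, 3 of these 15 genes differed in the blocked fit, where 13.6% of all genes did. The hemicentin gene him-4 was at 11.6, 75.6 and 9.90 CPM in wild-type worms and 15.3, 89.6 and 10.2 in knockout (edgeR adjusted p = 0.00057 for the replicate number). dig-1, the gene of a giant matrix protein, was at 13.1, 78.8 and 12.2 CPM in wild-type worms and 14.99, 92.0 and 15.2 in knockout, and the F-spondin gene spon-1 at 8.28, 18.3 and 5.66 in wild type and 9.44, 19.2 and 8.26 in knockout. These genes were singled out after their values were seen. him-4 and dig-1 have over 15 kb of exon. In that length class, 57.1% of the 14 protein-coding genes had replicate 2 over 1.5 times the other replicates in each genotype. The part of gene length in their levels was not tested. The perlecan gene unc-52 did not follow in wild type (143, 135 and 104 CPM), and the fibulin gene fbl-1 lay between 17.8 and 22.3 CPM in all libraries.

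Matrix receptors had 5 of 9 genes on the positive side of the genotype comparison (52.3% of all genes) and a median log2 fold change of 0.05, with 0 called. The genes with the smallest p were the discoidin domain receptor gene ddr-1 at 0.39 (SE 0.34), the integrin beta gene pat-3 at -0.23 (SE 0.42) and the netrin receptor gene unc-40 at -0.24 (SE 0.45). pat-2, which encodes the integrin alpha chain of muscle attachments, was at 18.6, 31.4 and 15.1 CPM in wild-type worms and 20.1, 37.6 and 16.4 in knockout. The laminin-type integrin alpha gene ina-1 was level in wild-type worms (64.4, 64.8 and 67.0 CPM) but not in knockout (56.8, 49.4 and 73.7). pat-3 was highest in replicate 3 of each genotype, at 120.2 and 131.3 CPM.

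Of 9 collagen processing genes 8 were tested and 0 were called, 6 on the positive side (52.3% of all genes), with a median of 0.12. The prolyl hydroxylase subunit genes dpy-18 and pdi-2 had log2 fold changes of 0.22 (SE 0.23; -0.04 on library totals alone) and 0.26 (SE 0.24), and tmem-131, which acts in collagen secretion, -0.21 (SE 0.46). Among the tested genes of the matrix, receptor, processing and remodelling lists, only dpy-18 had groups that did not overlap (3.27% of all genes), at 12.7 to 13.95 CPM in wild-type worms and 14.7 to 17.01 CPM in knockout. The lysyl hydroxylase gene let-268 was at 13.9, 17.2 and 10.9 CPM in wild-type worms and 16.3, 18.7 and 10.9 in knockout.

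Of 12 remodelling proteases and inhibitors 10 were tested and 0 were called. The fold change was positive for all 10 (52.3% of all genes), and their median was 0.27 on the log2 scale. However, this count holds for the TMM scaling. On library totals alone the median of all genes was -0.21. There mig-17 and cri-2 turned negative (-0.07 and -0.01), timp-1 was at 0.13, and the rest of the list is not given. With TMM the tissue inhibitor of metalloprotease genes timp-1 and cri-2 were at 0.40 (SE 0.30) and 0.27 (SE 0.30), and the ADAMTS protease gene mig-17 at 0.32 (SE 0.45).

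The genes whose pattern over the 6 libraries was closest to the mean pattern of the 8, among 6596 protein-coding genes whose mean level reached 10 CPM, were egl-9 (an oxygen-sensing prolyl hydroxylase), F21C10.7, gst-5 (a glutathione S-transferase), lrp-1 (a megalin-type receptor) and fasn-1 (fatty acid synthase). Their root-mean-square difference from that pattern was 0.12 to 0.15 on the log2 scale. fasn-1, for example, was at 185, 317 and 210 CPM in wild-type worms and 183, 311 and 225 in knockout. The list depended on the measure: by Pearson correlation over the same 6 libraries, the closest were the titin-like gene ttn-1, unc-22, dig-1 and the pharyngeal myosin genes myo-2 and myo-1, with r from 0.984 to 0.998, and 0 of the 5 genes were shared. ttn-1 was at 14.1, 136 and 17.8 CPM in wild-type worms and 14.7, 179 and 18.6 in knockout. unc-22 and dig-1 belong to the length class over 15 kb of exon, and the length of ttn-1 is not given here.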

How the data were processed

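Raw fragment counts for each gene were deposited; the authors made them with featureCounts 1.5.0 over exons, with strand setting 2 and the Ensembl annotation of WBcel235, per the file headers; the recorded command sets nothing for multi-mapping reads. The submitters' processing notes also name bcl2fastq 2.19, HISAT2 2.1.0 and DESeq2 1.26.0. Names and biotypes came from Ensembl 115 of the same build. Exons of the 8 genes shared no bases with other genes on their strand.

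Counts were filtered (filterByExpr, minimum count 10, minimum total 15), scaled by TMM and tested with edgeR 4.0.16 in R 4.3.3 (quasi-likelihood F test, robust, newer method, no covariate), with Benjamini-Hochberg adjustment over all 14354 genes and a threshold of 0.05. DESeq2 1.42.0 and limma 3.58.1 (voom) were alternatives, with other scalings, filters and gene sets, a replicate block and each library left out. CPM per kb divides CPM by the exon length in the table. Fits were tested on simulated counts.

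Same-numbered libraries were taken as paired because their deviations from the group means correlated with 0.648, 0.481 and 0.579 over genes, each over 0.1; the labels do not say what a number shares. No 2 libraries agreed within sampling noise. Members and lists were chosen with earlier results of these data known. Genes named are the 8, the 3 of each pathway list with the smallest p, and the 5 closest in pattern; others are given as examples chosen after their values were seen.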

Additional observations from a re-analysis of the deposited data

How the results depend on the processing

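None of the 8 genes was called for genotype under any alternative tried (smallest adjusted p 0.487), nor any of the 25 named genes (0.231). Over all genes, 0 were called by the edgeR test and 5 on library totals alone, 31 by DESeq2, 1 with the replicate block, 34 with the block and DESeq2, and 10 with the block and a gene length offset. The cause of these differences was not tested.

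On library totals alone the log2 fold change turned to -0.24 for emb-9, -0.25 for let-2, -0.35 for epi-1, -0.34 for lam-1, -0.24 for lam-2, -0.30 for lam-3, -0.036 for dpy-18, -0.0056 for cri-2, -0.075 for mig-17, -0.086 for gst-5, -0.26 for lrp-1 and -0.30 for fasn-1, with the median of all genes at -0.21. lam-3 turned to -0.028 with limma-voom, to -0.025 with the replicate block in edgeR and to -0.020 with the replicate block in DESeq2. fasn-1 was at -0.028 over protein-coding genes only. With the block and length offset, nid-1 was at 0.076 and egl-9 at 0.0064. Without both replicate 2 libraries, an alternative chosen after seeing the data, emb-9 was at -0.017, let-2 at -0.13, tmem-131 at 0.037 and lrp-1 at -0.14. The block changed the call of none of the 8 genes, and for each chain ratio the sign-flip form of the replicate block gave an exact p of 0.75.

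Leaving out 1 library at a time moved the log2 fold change between -0.26 and 0.38 for emb-9, -0.40 and 0.44 for let-2, -0.70 and 0.98 for epi-1, -0.51 and 0.65 for lam-1, -0.44 and 0.61 for lam-2, -0.40 and 0.50 for lam-3, -0.081 and 0.099 for nid-1, -0.42 and 0.22 for F21C10.7, -0.39 and 0.18 for egl-9, -0.22 and 0.28 for fasn-1, -0.17 and 0.49 for gst-5, -0.29 and 0.29 for lrp-1, -0.15 and 0.64 for mig-17, -0.76 and 0.045 for pat-3, -0.81 and 0.094 for tmem-131 and -0.88 and 0.10 for unc-40. The log2 difference of the ratios moved between -0.13 and 0.031 for let-2 to emb-9, -0.62 and 0.091 for lam-3 to epi-1 and -0.14 and 0.050 for lam-1 to lam-2.

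The count of genes that differed between replicate numbers, 1950, was 968 on library totals alone, 3103 over protein-coding genes, 3612 by DESeq2, 1245 with the length offset and 665 to 7180 with 1 library left out, lowest without knockout replicate 1 and highest without wild-type replicate 3. Where a replicate number kept 1 library, that library was assumed to vary like the others. epi-1 was called under every one of these except library totals alone. By Pearson correlation 0 of the 5 genes closest in pattern were shared.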

Other observations

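Oocyte and germline markers were highest in replicate 3 of each genotype as a sum, at 1493, 2264 and 3236 CPM in replicates 1 to 3 of wild type and 1101, 1106 and 3451 CPM in knockout. Of the 10 listed, 8 differed between replicate numbers in the blocked fit, where 13.6% of all genes did (edgeR). The yolk receptor gene rme-2, chosen after its values were seen, was at 281, 518 and 822 CPM in wild-type worms and 225, 152 and 841 in knockout. Hypodermis markers had no common order: their summed level was 3777, 2959 and 3248 CPM in wild-type worms and 4930, 5310 and 2561 in knockout, and 1 of the 6 tested differed between replicate numbers. That gene was the cuticle collagen gene dpy-13, at 5.57, 1.34 and 0.396 CPM in wild-type worms and 5.29, 1.07 and 0.263 in knockout (edgeR adjusted p = 0.0018).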
